A study of Mus musculus with 18 samples.

Results

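The cytochrome P450 genes of families 1, 2 and 3 were described in mouse liver in 2 models of stimulated cholesterol loss through the gut wall. Members were all genes with a symbol of Cyp1, Cyp2 or Cyp3 followed by a letter, without Cyp2j6, Cyp2c70 and any symbol that holds -ps. Where several probe sets were annotated to a single symbol, the brightest on average stood for the gene. This gave 36 of the 17097 genes measured, 3 in family 1, 27 in family 2 and 6 in family 3. No filter on low values was applied, so every member was tested.

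The first model was a line carrying the NPC1L1 transgene in liver (5 samples, strain C57BL/6), set against wild-type mice of that strain (n = 5). The second was an antisense oligonucleotide (ASO) against ACAT2 (n = 4, strain C57BL/6N), set against a non-targeting control ASO in the same strain (n = 4). All mice were female and aged 6 to 8 weeks, and total RNA of whole liver was hybridised to 1 array per sample. The study looked for regulators of reverse cholesterol transport, with the transgene as the chronic stimulus and the ASO as the acute one. The sources used here do not give the promoter or species of the transgene, the dose and duration of the ASOs, or whether each sample was a separate animal. The p-values therefore measure the spread between samples, which may be partly technical, and in whole tissue fewer cells of a type and less RNA per cell cannot be told apart.

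Cytochrome P450 enzymes are heme proteins that insert an oxygen atom into their substrate, with electrons passed to them by P450 oxidoreductase. Members of families 1, 2 and 3 are the main oxidising enzymes for drugs and pollutants, and they also hydroxylate steroids, fatty acids, retinoids and bile acids. In liver many are switched on by ligand sensors (the aryl hydrocarbon receptor AHR for Cyp1, the receptors CAR and PXR for Cyp2b, Cyp2c and Cyp3a). Some mouse members are sex-biased through the timing of growth hormone pulses.

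The 90 bases before the transcription start are shown for genes of the Cyp3a, Cyp2b and Cyp1a subfamilies, because the members with the widest spread among the arrays lay among close copies in the first 2 and because the third holds the classic AHR targets. Sequences, written 5′ to 3′ on the strand of the gene, and coordinates are from RefSeq (GRCm38.p6), and 30 of the 36 members had a promoter there. In the first 3, capitals mark the 38-base run that Cyp3a41a, Cyp3a16 and Cyp3a44 share, and in Cyp3a11 and Cyp3a25 the longest run each shares with Cyp3a41a (11 and 12 bases).
Cyp3a41a, chr5:145720137-145720226, minus strand: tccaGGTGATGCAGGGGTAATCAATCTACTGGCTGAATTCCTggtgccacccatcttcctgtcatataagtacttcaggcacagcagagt
Cyp3a16, chr5:145469724-145469813, minus strand: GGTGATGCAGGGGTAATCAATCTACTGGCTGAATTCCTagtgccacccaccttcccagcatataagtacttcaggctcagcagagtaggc
Cyp3a44, chr5:145805875-145805964, minus strand: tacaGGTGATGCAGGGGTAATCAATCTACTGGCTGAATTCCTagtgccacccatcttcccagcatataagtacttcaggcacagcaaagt
Cyp3a11, chr5:145879855-145879944, minus strand: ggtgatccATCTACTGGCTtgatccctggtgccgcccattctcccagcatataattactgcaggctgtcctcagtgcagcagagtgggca
Cyp3a25, chr5:146009619-146009708, minus strand: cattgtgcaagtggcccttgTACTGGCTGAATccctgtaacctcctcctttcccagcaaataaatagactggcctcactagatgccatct
Over the whole 300-base RefSeq window (250 before to 50 after the start), Cyp3a41a, Cyp3a16 and Cyp3a44 were 92.4% to 93.4% identical to each other. Their identity to Cyp3a11 was 71.5% to 75.5%. In the next 5, capitals mark GCGTG, the core bound by AHR.
Cyp2b13, chr7:26061405-26061494, plus strand: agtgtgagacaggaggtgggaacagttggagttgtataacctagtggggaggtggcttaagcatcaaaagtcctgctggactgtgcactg
Cyp2b9, chr7:26173319-26173408, plus strand: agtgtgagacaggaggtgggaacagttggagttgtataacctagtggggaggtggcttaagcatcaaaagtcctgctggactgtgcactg
Cyp2b10, chr7:25897568-25897657, plus strand: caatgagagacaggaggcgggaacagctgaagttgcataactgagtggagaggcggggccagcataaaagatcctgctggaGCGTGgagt
Cyp1a1, chr9:57697523-57697612, plus strand: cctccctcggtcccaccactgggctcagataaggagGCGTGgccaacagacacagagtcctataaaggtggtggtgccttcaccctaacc
Cyp1a2, chr9:57683656-57683745, minus strand: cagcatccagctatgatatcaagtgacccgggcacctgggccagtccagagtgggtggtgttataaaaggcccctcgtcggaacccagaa
The printed stretches of Cyp2b13 and Cyp2b9 were 100% identical, and that of Cyp2b10 was 74.7% identical to both. Over 300 bases Cyp2b13 and Cyp2b9 were 99.3% identical. GCGTG, searched on both strands, was found in 6 of 30 member windows (20%), namely Cyp1a1, Cyp1b1, Cyp2b10, Cyp2j13, Cyp2j9 and Cyp2r1, against 32.5% of 27025 promoters. AGTTCA, a nuclear receptor core, was in Cyp2c50, Cyp3a11 and Cyp3a41a (3 of 30, 10%, against 14.02% of promoters). TTCNNNGAA, the STAT5 core through which growth hormone acts, was in 0 of 30, against 8.47% of promoters. No member window held more than 1 kind of these motifs, and that of Cyp2b10 held GCGTG on each strand (at -9 and -101 from the start).

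The values are RMA log2 signals made by the authors. The probe set of the mouse Npc1l1 gene read 3.73, 3.75, 3.68, 3.61 and 3.61 in transgenic liver, against 3.73, 3.64, 3.66, 3.93 and 4.16 in wild-type liver, a difference of -0.15 (limma adjusted p = 0.604). Whether it detects the transgene is not given in the sources used here, and the transcript targeted by the ASO was not analysed here. Array medians were 4.61 to 4.65 for transgenic and wild-type liver but 4.38 to 4.40 for the ASO groups, so levels are compared only within a model. The signal of one gene's probe set cannot be set against another's, and probe sets of close copies may share signal. Of the members 30 had a gene-specific suffix, 4 the suffix for transcripts of 1 gene and 2 (Cyp2a5 and Cyp2c23) that for probes matching several transcripts. The arrays wild type 2, ACAT2 ASO 1 and control ASO 4 stood apart, with mean correlations to the other arrays of their model of 0.989, 0.990 and 0.989, against 0.992 to 0.994 for the rest. Where leaving out one of them moved a member's difference of 0.1 or more (log2) by over 1.5 times, the value without it is given with that gene. The 3′ minus 5′ signal of Actb, a sign of RNA integrity, was 0.89 to 1.26 in transgenic, 0.83 to 1.02 in wild-type, 0.92 to 1.18 in ACAT2 ASO and 0.99 to 1.09 in control ASO liver. The 11 hepatocyte markers summed to 16.21 to 16.28 (log2) in transgenic and 16.24 to 16.26 in wild-type liver. After ACAT2 ASO they summed to 16.18 to 16.25 and after control ASO to 16.19 to 16.22. The 6 measured cholangiocyte markers summed to 7.41 to 7.58 in transgenic and 7.45 to 7.60 in wild-type liver. Their sums were 6.83 to 6.90 after ACAT2 ASO and 6.83 to 7.89 after control ASO.

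**Figure D1:**
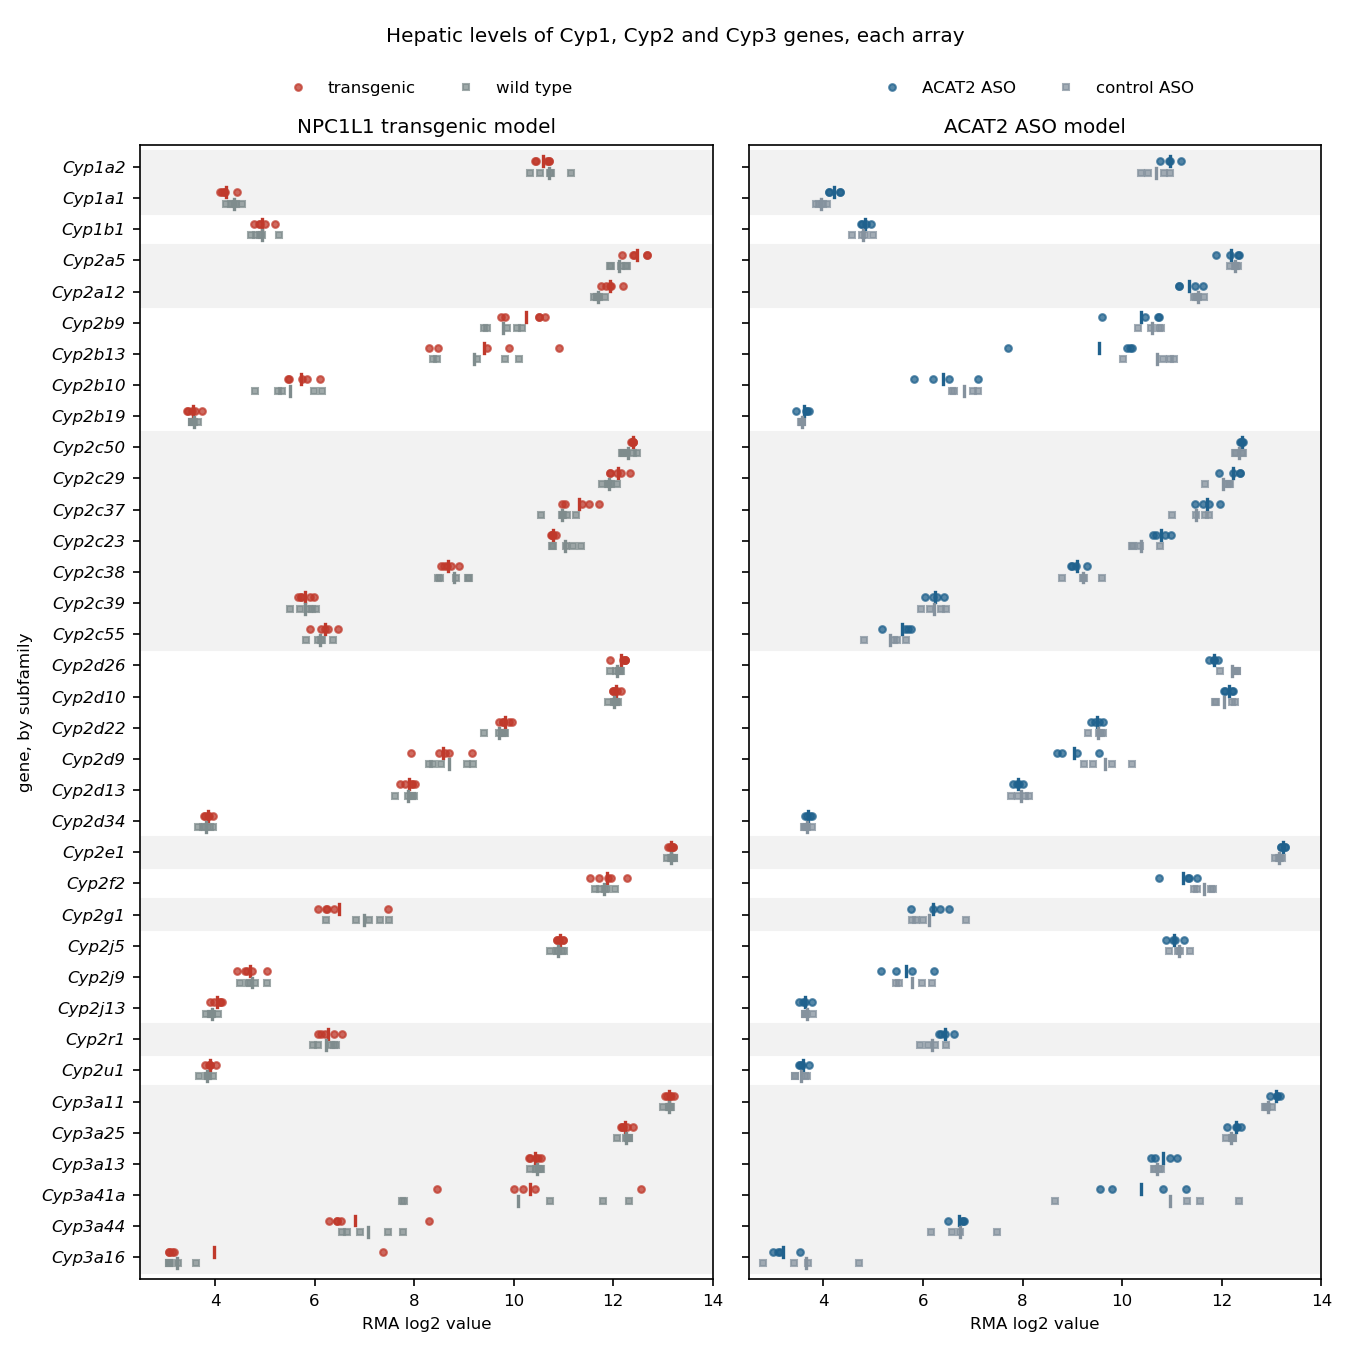
RMA log2 signal (horizontal axis) of each of the 36 P450 members in every array, transgenic and wild-type liver in one panel and ACAT2 ASO and control ASO liver in the other, with 1 row per gene and a vertical mark at each group mean. Signals of different genes are not comparable. Points of Cyp3a41a, Cyp2b13 and Cyp3a16 spread over several log2 units within a group, while those of Cyp2e1 and Cyp3a11 lie on top of each other.

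No member passed the test in any of the 3 comparisons. At a limma adjusted p under 0.05, 0 of 36 were called between transgenic and wild-type liver, against 0.228% of all genes (39 of 17097). After ACAT2 ASO 0 of 36 were called against control ASO, beside 0.597% of all genes (102). For the difference between the effects in the models the count was 0 of 36, beside 1.07% of all genes (183). At an unadjusted p under 0.05 the members numbered 4 of 36 in the transgenic comparison, where 10.9% of all genes passed, 6 of 36 in the ASO comparison (13.3% of all genes) and 7 of 36 for the difference (15.4%). The members' shares were thus 11.1%, 16.7% and 19.4%. Leaving out 1 array at a time gave 2 to 6 members in the transgenic comparison (9.09% to 12.3% of all genes), 4 to 9 in the ASO comparison (10.6% to 13.8%) and 5 to 9 for the difference (13.4% to 16.1%). The gene nearest to a call was Cyp2d26, lower after ACAT2 ASO in every array and just outside the threshold.

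Groups did not overlap for 0 of 36 members in the transgenic comparison, against 2.22% of all genes. In the ASO comparison they did not overlap for 2, Cyp1a1 (higher) and Cyp2d26 (lower), which is 5.56% of members against 9.05% of all genes (4.39% higher and 4.67% lower). The median log2 difference over the members was 0.03 for transgenic minus wild type and 0.02 for ACAT2 ASO minus control ASO, beside 0.0058 and -0.00056 over all genes. Of the 36, 23 lay above 0 in the transgenic comparison and 19 in the ASO comparison. These shares were 63.9% and 52.8%, against 52.6% and 49.7% of all genes.

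By subfamily, the signs often differed between the models, without a call in either. The 2 Cyp2a genes had a median difference of 0.30 in transgenic liver and -0.13 after ACAT2 ASO. The 4 Cyp2b genes had medians of 0.22 and -0.33, in the same order, and the 2 Cyp1a genes -0.14 and 0.28. The 7 Cyp2c genes lay at 0.09 and 0.21, with 4 above 0 in the transgenic comparison and 6 in the ASO comparison. Medians of the 6 Cyp2d, 3 Cyp2j and 6 Cyp3a genes were 0.03, 0.03 and 0.00045 in transgenic liver and -0.04, -0.10 and 0.04 after ACAT2 ASO. Single arrays moved several of these medians. Leaving out each array in turn, the transgenic median ran over -0.19 to -0.060 for Cyp1a, 0.24 to 0.33 for Cyp2a, 0.11 to 0.39 for Cyp2b and 0.019 to 0.13 for Cyp2c. The ASO median ran over 0.21 to 0.33 for Cyp1a, -0.20 to -0.043 for Cyp2a, -0.50 to -0.16 for Cyp2b and 0.048 to 0.25 for Cyp2c. The lowest Cyp2c value after ACAT2 ASO was that without control ASO 4, and without the 3 arrays that stand apart it was 0.095. Under single omissions the Cyp2d, Cyp2j and Cyp3a medians lay between -0.11 (Cyp2j, ASO comparison) and 0.11 (Cyp3a, ASO comparison). Over all members 10 were higher in both models, 4 lower in both, 13 higher in transgenic liver and lower after ACAT2 ASO, and 9 the other way. Opposite signs thus held for 61.1% of members and for 55.5% of all genes. The models share no arrays.

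**Figure D2:**
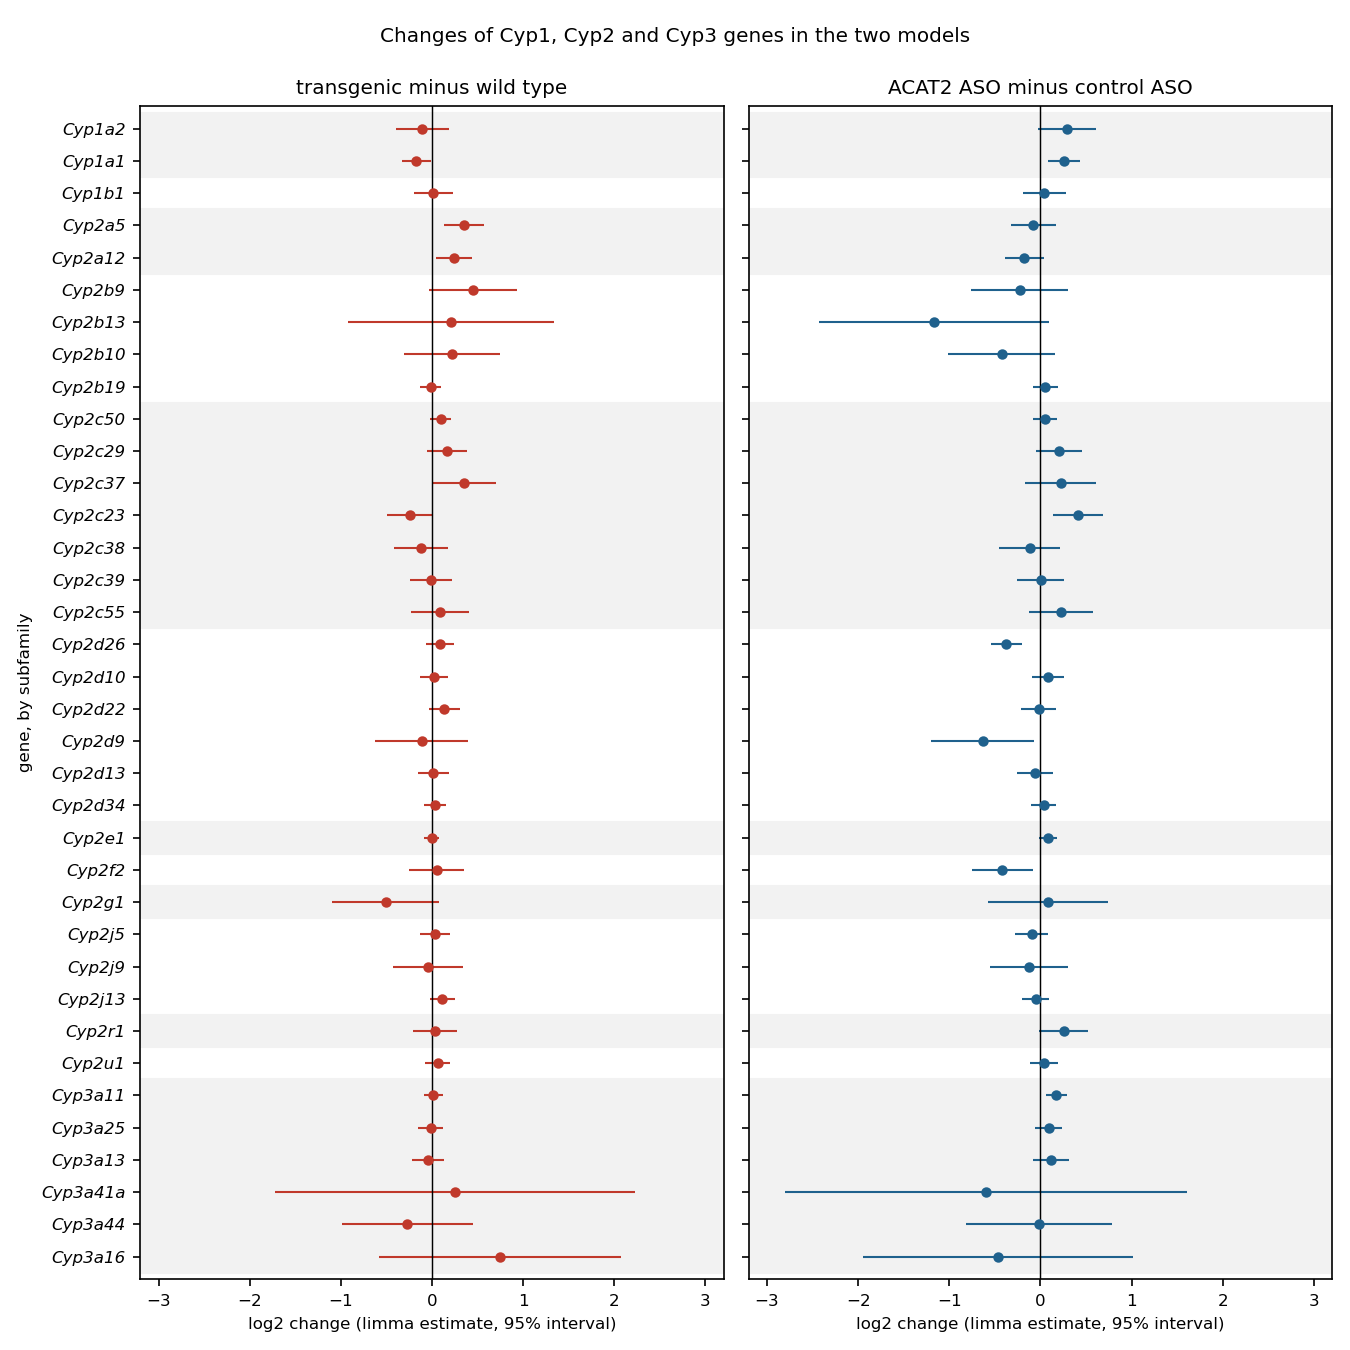
Log2 difference of each member, transgenic minus wild type and ACAT2 ASO minus control ASO, with 95% limma intervals, ordered by subfamily. These intervals are not adjusted for the number of genes tested. Those of 4 of 36 members in the transgenic and 6 of 36 in the ASO comparison exclude 0. The matching shares of all genes, at an unadjusted limma p under 0.05, were 10.9% and 13.3%. Cyp2d26 after ACAT2 ASO is among those clear of 0 (-0.55 to -0.20), and the intervals of Cyp3a41a, Cyp3a16 and Cyp2b13 are the widest.

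Cyp1a1 and Cyp1a2 are the AHR-induced enzymes that oxidise aromatic hydrocarbons and arylamines. Cyp1a1 read 4.14, 4.10, 4.18, 4.43 and 4.21 in transgenic liver, against 4.38, 4.23, 4.55, 4.33 and 4.43 in wild-type liver. The groups overlapped through transgenic 4. In the ASO model it read 4.33, 4.12, 4.33 and 4.10 after ACAT2 ASO, against 3.99, 3.92, 4.07 and 3.84 after control ASO. The lowest ACAT2 ASO array stood above the highest control array. The mean of Cyp1a1 over all arrays (4.20) lay at percentile 27.2 of all genes, a low signal whose part in these values was not tested. The differences were -0.17 ± 0.074 (SE, limma adjusted p = 0.409) in the transgenic and 0.26 ± 0.083 (SE, limma adjusted p = 0.151) in the ASO model. They differed from each other by -0.43 ± 0.11 (SE, limma adjusted p = 0.0702), and this difference passed the threshold only when transgenic 4 was left out, among the arrays left out in turn. Without the 3 arrays that stand apart the ASO value was 0.19.

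Cyp1a2, a constitutive enzyme of hepatocytes around the central vein, read 10.44, 10.45, 10.71, 10.66 and 10.72 in transgenic liver, against 10.53, 10.73, 11.15, 10.33 and 10.75 in wild-type liver. Wild type 3 was the highest array and wild type 4 the lowest. After ACAT2 ASO the values were 10.95, 10.77, 11.19 and 10.95, against 10.51, 10.96, 10.85 and 10.38 after control ASO, with the groups overlapping. The differences were -0.11 ± 0.14 (SE, limma adjusted p = 0.855) and 0.29 ± 0.15 (SE, limma adjusted p = 0.430), in that order of models. The transgenic value ran over -0.20 to 0.0081 with each array left out in turn, and the ASO value was 0.19 without control ASO 4. Cyp1b1, the family member of tissues outside the liver, ranged over 4.78 to 5.20 in transgenic and 4.73 to 5.29 in wild-type liver, and 4.75 to 4.95 after ACAT2 ASO and 4.57 to 4.99 after control ASO. Its differences were 0.016 and 0.041, and all groups overlapped.

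The Cyp2a genes were higher in value in transgenic liver. Cyp2a5, the mouse coumarin hydroxylase, read 12.18, 12.42, 12.68, 12.67 and 12.40 in transgenic liver, against 11.93, 12.16, 12.27, 11.95 and 12.27 in wild-type liver. Only transgenic 1 fell inside the wild-type range. The difference was 0.35 ± 0.10 (SE, limma adjusted p = 0.195), a fold of 1.28 with a 95% interval of 1.10 to 1.49. It had the smallest p of the 36 in this model and ranged from 0.30 to 0.43 over the alternatives, with 0 calls. The probe set of Cyp2a5 may match several transcripts, so its signal may not be of this gene alone. Cyp2a12, which hydroxylates testosterone and, in mice, secondary bile acids, read 11.96, 11.85, 12.20, 11.93 and 11.76 in transgenic liver, against 11.70, 11.68, 11.83, 11.62 and 11.67 in wild-type liver. The overlap came down to transgenic 5 and wild type 3.

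In the ASO model Cyp2a5 read 11.89, 12.16, 12.32 and 12.36 after ACAT2 ASO, against 12.32, 12.29, 12.26 and 12.16 after control ASO, and all ranges overlapped. Cyp2a12 read 11.15, 11.46, 11.15 and 11.63 after ACAT2 ASO, against 11.65, 11.53, 11.47 and 11.44 after control ASO. ACAT2 ASO 1 and 3 lay under all controls, and ACAT2 ASO 4 lay near the top of them. The Cyp2a12 differences were 0.24 ± 0.093 (SE, limma adjusted p = 0.346) in the transgenic and -0.17 ± 0.10 (SE, limma adjusted p = 0.506) in the ASO model, where it was -0.11 without ACAT2 ASO 1. Between the models the effects differed by 0.41 ± 0.14 (SE, limma adjusted p = 0.157) for Cyp2a12 and by 0.43 ± 0.16 (SE, limma adjusted p = 0.188) for Cyp2a5.

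Cyp2b10 is the standard CAR target, and Cyp2b9 and Cyp2b13 are female-predominant genes of mouse liver. Cyp2b10 read 5.76, 6.12, 5.49, 5.84 and 5.46 in transgenic liver, against 6.16, 4.80, 5.26, 5.35 and 5.98 in wild-type liver. Wild type 1 and 2 were the highest and lowest of all. The difference was 0.22 ± 0.25 (SE, limma adjusted p = 0.819), but the other 2 probe sets of the gene gave -0.16 and -0.19, so its sign was not settled. Without wild type 2 it was 0.045. After ACAT2 ASO it read 6.19, 5.82, 6.51 and 7.10, against 6.63, 7.002, 7.11 and 6.58 after control ASO. ACAT2 ASO 4 reached the level of the highest control. The difference was -0.42 ± 0.28 (SE, limma adjusted p = 0.554), and the other probe sets gave -0.46 and -0.40. With each array left out in turn it ran over -0.66 to -0.23.

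Cyp2b13 and Cyp2b9, whose printed promoters are identical, had wide spreads. Cyp2b13 read 8.48, 9.91, 10.91, 9.46 and 8.31 in transgenic liver, against 8.45, 9.27, 10.10, 9.82 and 8.37 in wild-type liver. Transgenic 3 was the highest and transgenic 5 the lowest, and both groups ran over more than 1 log2 unit. In the ASO model Cyp2b13 read 7.71, 10.20, 10.10 and 10.15 after ACAT2 ASO, against 11.03, 10.97, 10.81 and 10.02 after control ASO. ACAT2 ASO 1 lay far below every other array, and control ASO 4 lay within the ACAT2 ASO range. Log2 differences were 0.21 ± 0.53 (SE, limma adjusted p = 0.937) and -1.17 ± 0.60 (SE, limma adjusted p = 0.415). Without ACAT2 ASO 1 the ASO value was -0.56, and the transgenic value ran over -0.16 to 0.49 with each array left out in turn.

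Cyp2b9 read 9.75, 10.50, 10.62, 10.52 and 9.82 in transgenic liver, against 10.06, 9.47, 10.16, 9.86 and 9.41 in wild-type liver. Transgenic 2, 3 and 4 lay above all wild-type arrays, and transgenic 1 and 5 among them. After ACAT2 ASO it read 9.59, 10.47, 10.73 and 10.73, against 10.74, 10.78, 10.58 and 10.32 after control ASO. ACAT2 ASO 1 was again the lowest array. Transgenic and ASO differences were 0.45 ± 0.23 (SE, limma adjusted p = 0.498) and -0.23 ± 0.25 (SE, limma adjusted p = 0.772), and without ACAT2 ASO 1 the ASO value was 0.04. For both Cyp2b9 and Cyp2b13, transgenic 3 and wild type 3 were the highest arrays of their groups, and wild type 5, ACAT2 ASO 1 and control ASO 4 the lowest. The genes differed in the lowest transgenic array and in the highest ACAT2 ASO and control ASO arrays. Cyp2b19, the skin member of the subfamily, ranged over 3.44 to 3.74 in transgenic and 3.53 to 3.66 in wild-type liver, and 3.46 to 3.70 after ACAT2 ASO and 3.54 to 3.57 after control ASO, with differences of -0.015 and 0.056.

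**Figure D3:**
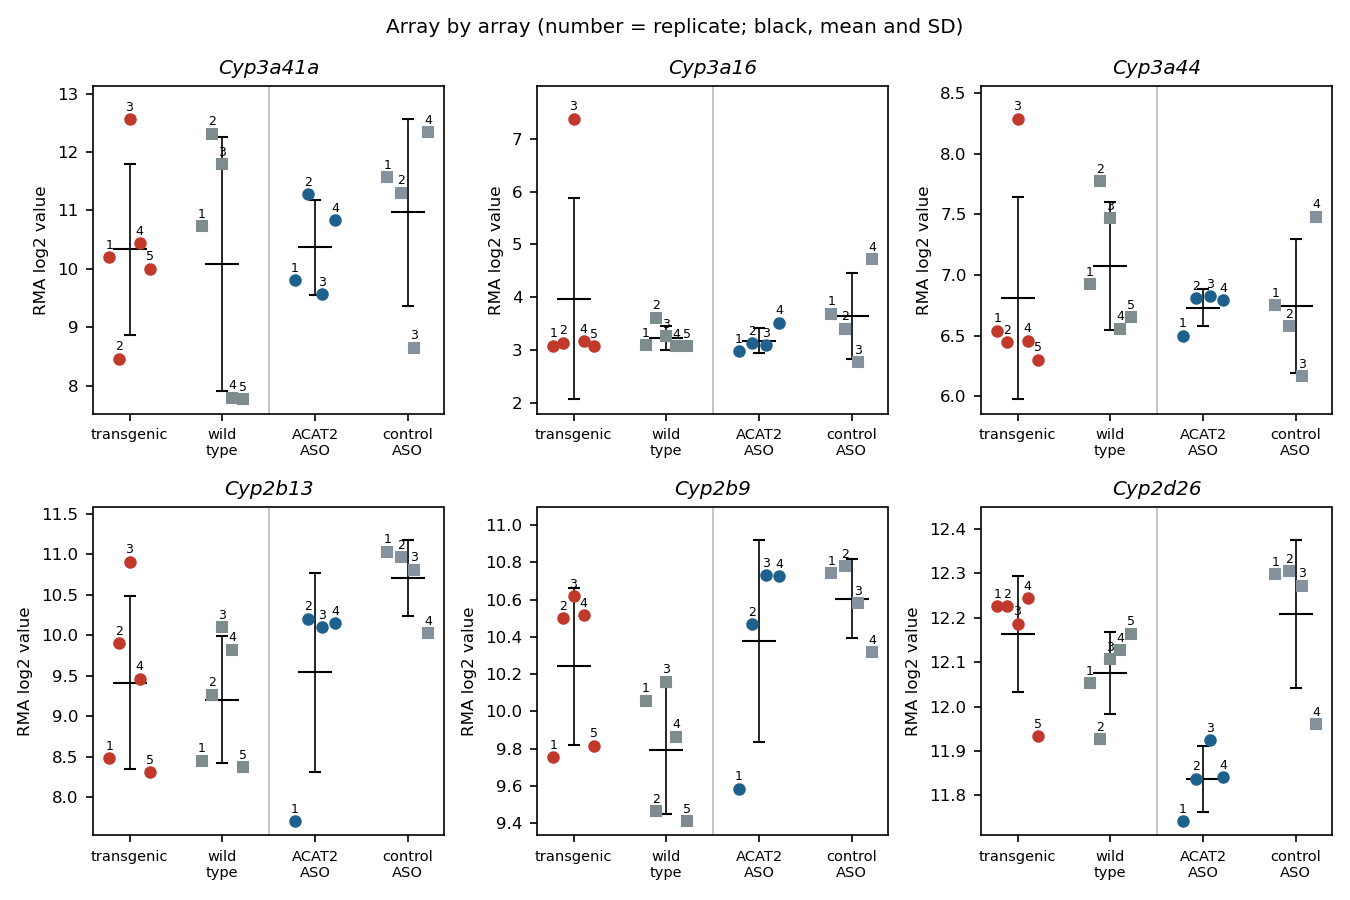
RMA log2 signal in each array, by group, with mean and SD in black, for Cyp3a41a, Cyp3a16, Cyp3a44, Cyp2b13, Cyp2b9 and Cyp2d26. Cyp3a16 is at 7.38 in transgenic 3 and under 4 in the other transgenic and all wild-type arrays, Cyp2b13 is at 7.71 in ACAT2 ASO 1, and the ACAT2 ASO arrays of Cyp2d26 all lie under the control arrays.

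The Cyp2c enzymes make epoxides and hydroxides of arachidonic and linoleic acid, and some take retinoids. Cyp2c23 (also named Cyp2c44), an arachidonic acid epoxygenase, read 10.86, 10.75, 10.77, 10.80 and 10.77 in transgenic liver, against 10.79, 11.05, 11.20, 10.77 and 11.35 in wild-type liver. The transgenic arrays were close together, and wild type 2, 3 and 5 lay above them. With ASO treatment it read 10.85, 10.69, 10.99 and 10.63 after ACAT2 ASO, against 10.20, 10.35, 10.76 and 10.21 after control ASO. Control ASO 3 alone reached into the ACAT2 ASO range. The differences came to -0.25 ± 0.12 (SE, limma adjusted p = 0.459) and 0.41 ± 0.13 (SE, limma adjusted p = 0.156), opposite in sign. They differed by -0.65 ± 0.17 (SE, limma adjusted p = 0.0792), past the threshold only when control ASO 3 was left out, among the arrays left out in turn. Its probe set is one of those that may match several transcripts.

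Cyp2c37 read 10.96, 11.52, 11.71, 11.37 and 11.02 in transgenic liver, against 10.55, 10.96, 11.25, 11.07 and 10.99 in wild-type liver. Transgenic 2, 3 and 4 stood above all wild-type arrays and wild type 1 below all others. The ASO-treated livers gave 11.62, 11.46, 11.97 and 11.73 after ACAT2 ASO, against 11.48, 11.66, 11.75 and 11.01 after control ASO, and control ASO 4 was the lowest. The differences were 0.35 ± 0.17 (SE, limma adjusted p = 0.455) and 0.22 ± 0.19 (SE, limma adjusted p = 0.670), the ASO value being 0.068 without control ASO 4. Cyp2c50, whose 300-base promoter is 86.6% identical to that of Cyp2c37, had closer values, but its mean lay at percentile 99.56 of all genes. Signal can be compressed near the top of an array's scale, and whether it was here was not tested. It read 12.39, 12.41, 12.38, 12.36 and 12.39 in transgenic liver, against 12.20, 12.21, 12.40, 12.18 and 12.47 in wild-type liver. Transgenic arrays were within a few hundredths of each other, and wild-type arrays lay on both sides. After ACAT2 ASO it read 12.41, 12.39, 12.37 and 12.43, against 12.43, 12.28, 12.40 and 12.29 after control ASO. Its differences were 0.095 ± 0.054 (SE, limma adjusted p = 0.558) and 0.049 ± 0.061 (SE, limma adjusted p = 0.800).

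Cyp2c29, a CAR-inducible epoxygenase, read 11.93, 12.16, 12.34, 12.08 and 11.93 in transgenic liver, against 11.90, 11.96, 11.91, 12.07 and 11.78 in wild-type liver, and the groups overlapped. Among ASO-treated livers it read 11.94, 12.22, 12.37 and 12.37 after ACAT2 ASO, against 12.10, 12.16, 12.14 and 11.66 after control ASO. ACAT2 ASO 2, 3 and 4 lay above the controls, ACAT2 ASO 1 lay inside their range, and control ASO 4 was lowest. Log2 differences were 0.17 ± 0.11 (SE, limma adjusted p = 0.619) and 0.21 ± 0.12 (SE, limma adjusted p = 0.480), the ASO value being 0.090 without control ASO 4. The other members of the subfamily, Cyp2c38, Cyp2c39 (a retinoic acid hydroxylase) and Cyp2c55, had differences of -0.12, -0.014 and 0.088 in transgenic liver. After ACAT2 ASO theirs were -0.12, 0.0054 and 0.22. Without control ASO 4 that of Cyp2c38 was -0.26 and that of Cyp2c55 0.048, and without ACAT2 ASO 1 that of Cyp2c55 was 0.35. All groups overlapped.

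Cyp2d26 gave the smallest p of the 36 in the ASO model. It belongs to the subfamily of the human drug-oxidising enzyme CYP2D6. It read 11.74, 11.84, 11.92 and 11.84 after ACAT2 ASO, against 12.30, 12.30, 12.27 and 11.96 after control ASO. Every ACAT2 ASO array lay under every control array, control ASO 4 being nearest. The difference was -0.37 ± 0.083 (SE, limma adjusted p = 0.0509), with a 95% interval of -0.55 to -0.20, a fold of 0.773. Over the alternatives the adjusted p ran from 0.00627 (array weights) to 0.174 (replicate number as block). Array weights called 465 genes in all and the block 18, against 102 in the main fit. It passed the threshold without the 40% of genes with the lowest mean (0.0452), with arrays centred on their medians (0.0395), with a trended and robust variance (0.0353), without control ASO 4 (-0.45, 0.0110) and without the 3 arrays that stand apart (-0.42, 0.0280).

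In the transgenic model Cyp2d26 read 12.23, 12.23, 12.19, 12.24 and 11.93 in transgenic liver, against 12.05, 11.93, 12.11, 12.13 and 12.16 in wild-type liver. Transgenic 5 was apart from the other transgenic arrays and level with the lowest wild-type array. The difference was 0.088 ± 0.074 (SE, limma adjusted p = 0.738), and the effects in the models differed by 0.46 ± 0.11 (SE, limma adjusted p = 0.0568). Leaving out transgenic 5 or control ASO 4, or the 3 arrays that stand apart, brought this difference past the threshold.

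Cyp2d9, the male-predominant testosterone hydroxylase, read 9.17, 8.50, 8.69, 7.93 and 8.61 in transgenic liver, against 8.39, 9.06, 8.30, 9.19 and 8.54 in wild-type liver, fully overlapping. In the ASO model it read 9.53, 8.80, 8.69 and 9.09 after ACAT2 ASO, against 10.20, 9.24, 9.80 and 9.41 after control ASO. ACAT2 ASO 2, 3 and 4 lay below all controls and ACAT2 ASO 1 above 2 of them. Transgenic and ASO differences were -0.11 ± 0.24 (SE, limma adjusted p = 0.921) and -0.63 ± 0.27 (SE, limma adjusted p = 0.309), the transgenic value being -0.024 without wild type 2. Cyp2d10, whose promoter is 83.2% identical to that of Cyp2d9, did not follow it. It read 12.08, 12.15, 11.997, 12.03 and 12.002 in transgenic liver, against 12.06, 11.90, 12.05, 12.02 and 12.09 in wild-type liver, and 12.21, 12.07, 12.24 and 12.05 after ACAT2 ASO, against 11.89, 12.20, 12.27 and 11.86 after control ASO. Its differences were 0.025 ± 0.074 (SE, limma adjusted p = 0.947) and 0.087 ± 0.082 (SE, limma adjusted p = 0.720). Cyp2d22, Cyp2d13 and Cyp2d34 had differences of 0.13, 0.017 and 0.037 in transgenic liver and -0.017, -0.060 and 0.035 after ACAT2 ASO. The transgenic value of Cyp2d22 was 0.062 without wild type 2.

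Cyp2e1, which oxidises ethanol, acetone and paracetamol around the central vein, had little spread between arrays, with a mean at percentile 99.95 of all genes, where compression of the signal was likewise not tested. It read 13.20, 13.20, 13.19, 13.09 and 13.14 in transgenic liver, against 13.17, 13.07, 13.21, 13.22 and 13.16 in wild-type liver. The groups coincided, with a difference of -0.0039 ± 0.041 (SE, limma adjusted p = 0.986) and a 95% interval of -0.090 to 0.082. After ACAT2 ASO it read 13.20, 13.18, 13.28 and 13.27, against 13.14, 13.16, 13.21 and 13.08 after control ASO. Its difference was 0.083 ± 0.046 (SE, limma adjusted p = 0.457). Cyp2f2, which activates naphthalene and in liver marks hepatocytes around the portal vein, read 11.96, 11.54, 11.71, 12.28 and 11.88 in transgenic liver, against 11.83, 11.63, 11.88, 11.73 and 12.03 in wild-type liver, and the groups overlapped. With ASO treatment it read 11.32, 11.51, 10.74 and 11.33 after ACAT2 ASO, against 11.83, 11.51, 11.44 and 11.78 after control ASO. ACAT2 ASO 3 lay below every other array, and ACAT2 ASO 2 alone reached the lower controls. The differences came to 0.053 ± 0.14 (SE, limma adjusted p = 0.943) and -0.42 ± 0.16 (SE, limma adjusted p = 0.258), and the effects differed by 0.47 ± 0.22 (SE, limma adjusted p = 0.305). Without ACAT2 ASO 3 the ASO value was -0.26.

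Non-P450 genes of the same liver zones were counted for comparison. Of 16 measured periportal genes 13 lay below 0 after ACAT2 ASO (median -0.15) and 14 in transgenic liver (median -0.08), with 0 called in each. The lowest p after ACAT2 ASO were those of Hsd17b13, a lipid droplet protein, at -0.39, and Hal, a histidine-degrading enzyme, at -0.60 (limma adjusted p = 0.107 and 0.112). Of 18 pericentral genes 14 lay above 0 after ACAT2 ASO (median 0.09), with 0 called, and 8 in transgenic liver (median -0.03), with 1 called. The called gene was Psmd4, a proteasome subunit, at 0.31 ± 0.05 (SE, limma adjusted p = 0.0125). Over all genes 0.228% were called in the transgenic and 0.597% in the ASO comparison, and 52.6% and 49.7% lay above 0. Genes of a list share the same arrays and are not independent. Whether zonal cell shares differed was not tested.

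Cyp2g1, best known from olfactory mucosa, read 6.25, 6.08, 6.38, 6.23 and 7.47 in transgenic liver, against 7.09, 7.49, 7.31, 6.83 and 6.22 in wild-type liver. Transgenic 5 and wild type 5 each stood away from their own group toward the other. The ASO-treated livers gave 6.19, 6.53, 6.35 and 5.75 after ACAT2 ASO, against 5.99, 5.86, 5.79 and 6.86 after control ASO, with control ASO 4 highest. The differences were -0.51 ± 0.28 (SE, limma adjusted p = 0.544) and 0.083 ± 0.31 (SE, limma adjusted p = 0.945), the ASO value being 0.33 without control ASO 4. Cyp2j5, an arachidonic acid epoxygenase of kidney and liver, read 10.92, 10.88, 10.86, 10.98 and 10.998 in transgenic liver, against 10.89, 10.98, 10.72, 11.01 and 10.87 in wild-type liver, and 10.87, 11.24, 11.02 and 11.06 after ACAT2 ASO, against 11.36, 11.16, 10.94 and 11.12 after control ASO. Both pairs of groups overlapped, with differences of 0.032 ± 0.077 (SE, limma adjusted p = 0.933) and -0.096 ± 0.087 (SE, limma adjusted p = 0.703). Cyp2j6, which the selection left out, was called after ACAT2 ASO (-1.02 ± 0.17, limma adjusted p = 0.00741), and the 3 Cyp2j members were not.

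Cyp2j13 read 3.99, 4.11, 3.89, 4.10 and 4.14 in transgenic liver, against 4.07, 3.92, 3.93, 3.81 and 3.92 in wild-type liver. Transgenic arrays were mostly on the high side, with overlap. Among ASO-treated livers it read 3.62, 3.59, 3.50 and 3.78 after ACAT2 ASO, against 3.62, 3.65, 3.79 and 3.63 after control ASO, with control ASO 3 highest. Its differences were 0.12 ± 0.063 (SE, limma adjusted p = 0.535) and -0.051 ± 0.070 (SE, limma adjusted p = 0.831). Cyp2j9 ranged over 4.45 to 5.05 in transgenic and 4.49 to 5.04 in wild-type liver, and 5.15 to 6.22 after ACAT2 ASO and 5.45 to 6.18 after control ASO, with differences of -0.047 and -0.13 (the ASO value -0.24 without control ASO 4). Cyp2r1, a vitamin D hydroxylase, read 6.21, 6.07, 6.12, 6.40 and 6.55 in transgenic liver, against 6.32, 6.43, 5.97, 6.39 and 6.08 in wild-type liver, and 6.33, 6.44, 6.63 and 6.36 after ACAT2 ASO, against 6.09, 6.46, 6.24 and 5.94 after control ASO. Its groups overlapped, and the differences were 0.031 ± 0.11 (SE, limma adjusted p = 0.960) and 0.25 ± 0.13 (SE, limma adjusted p = 0.407). Cyp2u1, a fatty acid hydroxylase, read 3.90, 3.90, 3.88, 4.03 and 3.81 in transgenic liver, against 3.96, 3.69, 3.86, 3.84 and 3.85 in wild-type liver, and 3.50, 3.72, 3.58 and 3.53 after ACAT2 ASO, against 3.63, 3.42, 3.68 and 3.43 after control ASO. It showed overlap throughout, with differences of 0.062 and 0.040.

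Cyp3a11 is the main drug-oxidising Cyp3a enzyme of mouse liver and a target of PXR. It read 13.07, 13.16, 13.22, 13.14 and 13.04 in transgenic liver, against 12.999, 13.14, 13.12, 13.14 and 13.16 in wild-type liver. Wild type 1 was lowest and the groups overlapped, with a difference of 0.015 ± 0.049 (SE, limma adjusted p = 0.953) and a 95% interval of -0.088 to 0.12. In the ASO model it read 12.98, 13.10, 13.11 and 13.18 after ACAT2 ASO, against 13.01, 12.89, 12.91 and 12.87 after control ASO. ACAT2 ASO 2, 3 and 4 lay above all controls, and ACAT2 ASO 1 fell just under control ASO 1. The difference was 0.17 ± 0.055 (SE, limma adjusted p = 0.155), a fold of 1.13. It was called in 1 of 18 alternative fits, array weights (limma adjusted p = 0.0410), over a range of 0.0410 to 0.347. That setting called 465 genes in all, against 102 in the main fit.

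Cyp3a25 read 12.16, 12.29, 12.39, 12.20 and 12.18 in transgenic liver, against 12.27, 12.08, 12.32, 12.30 and 12.32 in wild-type liver, with wild type 2 lowest, and 12.11, 12.30, 12.31 and 12.40 after ACAT2 ASO, against 12.21, 12.23, 12.22 and 12.09 after control ASO, with control ASO 4 lowest. Its differences were -0.014 ± 0.063 (SE, limma adjusted p = 0.967) and 0.090 ± 0.070 (SE, limma adjusted p = 0.646). Cyp3a13, also expressed in intestine, ranged over 10.31 to 10.55 in transgenic and 10.33 to 10.55 in wild-type liver, and 10.59 to 11.10 after ACAT2 ASO and 10.64 to 10.78 after control ASO, with differences of -0.043 and 0.12.

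Cyp3a41a, Cyp3a16 and Cyp3a44, whose promoters share the 38-base run, varied widely between arrays of a group. Cyp3a41a, a female-predominant gene, read 10.20, 8.46, 12.56, 10.44 and 10.002 in transgenic liver, against 10.73, 12.31, 11.79, 7.79 and 7.76 in wild-type liver. Transgenic 3 and wild type 2 were the highest, and wild type 4 and 5 the lowest. With ASO treatment it read 9.81, 11.27, 9.56 and 10.83 after ACAT2 ASO, against 11.57, 11.30, 8.65 and 12.34 after control ASO. Control ASO 4 was highest and control ASO 3 lowest. The differences, 0.25 ± 0.93 (SE, limma adjusted p = 0.959) and -0.60 ± 1.05 (SE, limma adjusted p = 0.874), were small beside this spread. The transgenic value was 0.81 without wild type 2, and the ASO value -0.14 without control ASO 4.

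Cyp3a16, known from fetal and young liver, read 3.08, 3.15, 7.38, 3.17 and 3.08 in transgenic liver, against 3.10, 3.62, 3.26, 3.08 and 3.08 in wild-type liver. Transgenic 3 alone carried the signal in its group. The ASO-treated livers gave 2.99, 3.13, 3.09 and 3.52 after ACAT2 ASO, against 3.69, 3.41, 2.78 and 4.72 after control ASO, again with control ASO 4 highest and control ASO 3 lowest. Log2 differences were 0.75 ± 0.63 (SE, limma adjusted p = 0.739) and -0.47 ± 0.70 (SE, limma adjusted p = 0.849), and without transgenic 3 the transgenic value was -0.11. Without control ASO 4 the ASO value was also -0.11. Cyp3a44, another female-predominant gene, read 6.54, 6.44, 8.29, 6.46 and 6.30 in transgenic liver, against 6.92, 7.77, 7.47, 6.56 and 6.65 in wild-type liver. It was highest in transgenic 3 and wild type 2. Among ASO-treated livers it read 6.50, 6.81, 6.82 and 6.79 after ACAT2 ASO, against 6.75, 6.58, 6.16 and 7.48 after control ASO, highest in control ASO 4. Its differences were -0.27 and -0.014, the transgenic one being -0.64 without transgenic 3 and -0.094 without wild type 2, and the ASO one running over -0.21 to 0.23 with each array left out in turn. The highest array of a group was the same for all 3 genes in transgenic, wild-type and control ASO liver, and not in ACAT2 ASO liver. These probe sets may share signal, and wild type 2 and control ASO 4 are among the arrays that stand apart, whose part in the pattern was not tested.

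The residual SD, the spread within groups over all 18 arrays, was 1.63 for Cyp3a41a (5th of 17097 genes from the top), 1.10 for Cyp3a16 (28th), 0.93 for Cyp2b13 (49th) and 0.59 for Cyp3a44 (210th). At the other end it was 0.05 for Cyp2e1 and 0.07 for Cyp3a11, which are also the brightest members (percentiles 99.95 and 99.91 of mean level). The median member had 0.18, against 0.11 for all genes, and 14 of 36 members were above the 90th percentile of all genes. The 95% interval of the Cyp3a41a difference between transgenic and wild-type liver accordingly ran over -1.72 to 2.22.

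**Figure D4:**
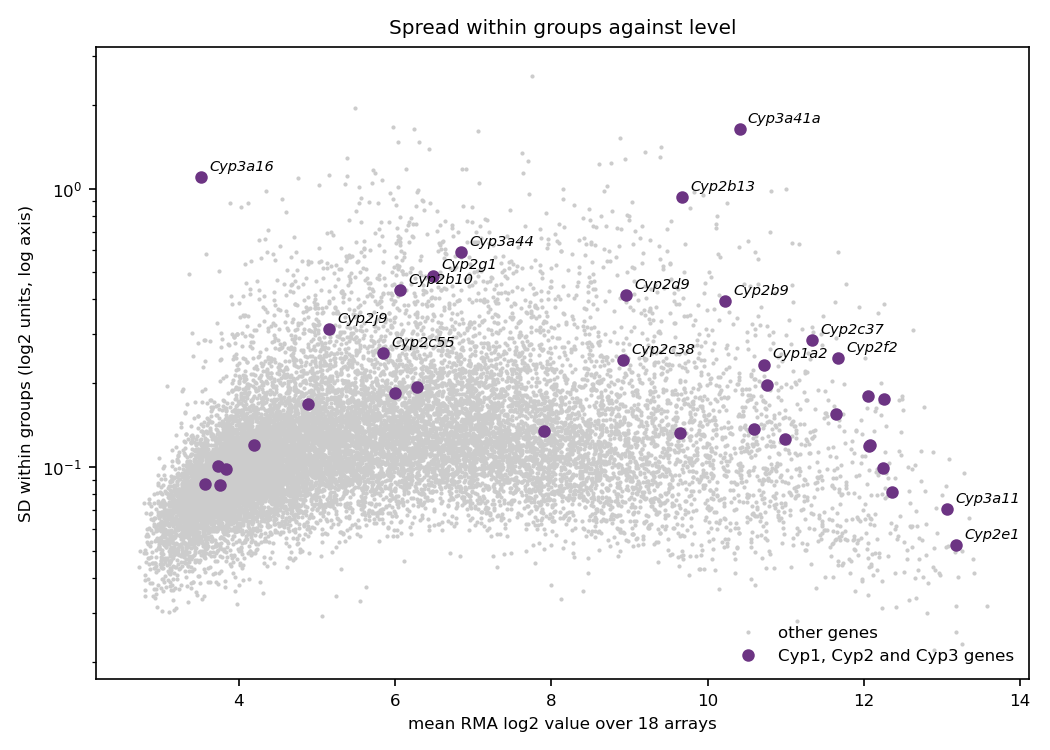
Residual SD (vertical axis, log scale) against mean RMA log2 signal (horizontal axis) for all 17097 genes, with the P450 members as large points, the more and the less variable ones named. Cyp3a41a at 1.63, Cyp3a16 at 1.10 and Cyp2b13 at 0.93 stand highest among the members, and Cyp2e1 at 0.05 and Cyp3a11 at 0.07 lowest.

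Genes that serve or govern the P450 enzymes were counted by list. Here and in the next paragraph, the calls stand beside 0.228% of all genes in the transgenic and 0.597% in the ASO comparison. Counts above 0 stand beside 52.6% and 49.7% of all genes, in the same order. P450 oxidoreductase (Por) was not analysed here. Of 15 measured genes of electron supply and heme synthesis 0 were called in either comparison, with medians of 0.03 in transgenic liver and 0.02 after ACAT2 ASO. Alas1, the first enzyme of heme synthesis, differed by 0.54 ± 0.18 in transgenic liver (SE, limma adjusted p = 0.251). Of 24 sensors and partner factors 0 were called in transgenic liver and 1 after ACAT2 ASO, the coactivator Ncoa2, which rose by 0.33 ± 0.06 (SE, limma adjusted p = 0.0267). CAR (Nr1i3) stood at 0.15 ± 0.14 for the transgene (SE, limma adjusted p = 0.779) and at -0.57 ± 0.16 for the ACAT2 ASO (SE, limma adjusted p = 0.111). PXR (Nr1i2) gave 0.04 and 0.09, and Ahr gave 0.0058 and 0.26, with limma adjusted p of 0.961, 0.880, 0.994 and 0.413.

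Among 26 non-P450 targets of these sensors 0 were called, with 15 above 0 in transgenic liver (median 0.04) and 7 after ACAT2 ASO (median -0.07). The smallest p after ACAT2 ASO were those of the glutathione transferases Gstm2 (-0.93 ± 0.31) and Gsta2 (-0.75), with limma adjusted p of 0.174 and 0.244. Of 27 growth hormone and sex-biased genes 0 were called, with 11 above 0 in transgenic liver and 6 after ACAT2 ASO (medians -0.05 and -0.13). All 12 Kupffer cell and macrophage markers lay above 0 after ACAT2 ASO (median 0.40), and 5 of 12 in transgenic liver (median -0.02), with 0 called. Their summed level ran over 12.93 to 13.64 in transgenic and 12.65 to 13.999 in wild-type liver, and over 11.91 to 13.45 after ACAT2 ASO and 11.91 to 13.03 after control ASO. Of 14 acute phase genes 12 lay above 0 after ACAT2 ASO (median 0.25) and 11 in transgenic liver (median 0.20), with 0 called. They summed to 14.96 to 15.44 in transgenic and 14.79 to 15.63 in wild-type liver. In the ASO model the sum was 14.78 to 15.45 after ACAT2 ASO and 14.64 to 15.64 after control ASO. The part of these in the P450 values was not tested.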

How the data were processed

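Liver RNA of 18 samples was hybridised to Affymetrix MG-430 PM arrays after 3′-IVT labelling, per the labels' protocols. The log2 values used here are probe set signals that the authors deposited after RMA, per the submitters' processing notes, which name no version. Groups and replicate numbers came from the sample titles. Of 45141 probe sets 104 controls were left out, and 28898 had 1 gene symbol in the platform annotation. The one with the highest mean stood for each of 17097 genes. No arrays were identical (0 pairs).

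All genes were fitted together with limma 3.58.1 (R 4.3.3; lmFit and eBayes, a mean per group over 18 arrays). Transgenic was set against wild type, ACAT2 ASO against control ASO, and these effects against each other. Two-sided tests were adjusted over all genes (Benjamini-Hochberg) with a threshold of 0.05, with limma's moderated standard errors. The number of arrays limits the precision. The members, the 14 gene lists and the tests were chosen with earlier results of these data known.

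Array values are given for the 8 members with the smallest p per comparison, the 6 with the largest difference between effects, the 10 with the highest mean and the highest-mean member of each subfamily, and up to 3 genes with the smallest p per list may be named. Cyp3a44 was added to these after its values were seen. Promoters came from RefSeq (GRCm38.p6), and a planned protein comparison was not run. Alternatives were a filter on the lowest 40% of genes, centring, quantile normalization by model, averaging the probe sets of a gene, separate fits, a trended and robust variance, array weights, a replicate block, other thresholds and leaving out each array. On simulated data with known changes the procedure recovered 56 of 67 genes changed by 0.5 (log2) in the transgenic comparison and 55 of 67 in the ASO comparison, with 8 and 10 calls among 16897 unchanged genes. The simulated noise was independent between genes and arrays, with no array standing apart. The changed genes were drawn from all genes, whose median residual SD was 0.11, against 0.18 for the members. These shares therefore do not give the recovery for the members. Figures were drawn with matplotlib 3.10.9.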

Additional observations from a re-analysis of the deposited data

Results flagged for a closer look

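In 12 of 144 groups of arrays (8.33%), over 9 of the 36 members, a single array lay far from the rest of its group by Dixon's ratio, which chance alone does for about 1 group in 20. Over all genes it was 6.09% of 68388 groups, and genes on the same arrays are not independent. Cyp3a16 was at 7.38 in transgenic 3, against 3.08 to 3.17 in the other transgenic arrays. In the same array Cyp3a44 was at 8.29, against 6.30 to 6.54. Cyp2b13 was at 7.71 in ACAT2 ASO 1, against 10.10 to 10.20 in its group, and Cyp3a44 at 6.50 there, against 6.79 to 6.82. In control ASO 4, Cyp2d26 was at 11.96 (others 12.27 to 12.30), Cyp2c29 at 11.66 (12.10 to 12.16) and Cyp3a25 at 12.09 (12.21 to 12.23). In transgenic 5, Cyp2d26 was at 11.93 (others 12.19 to 12.24) and Cyp2g1 at 7.47 (6.08 to 6.38).

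Cyp3a25 was at 12.08 in wild type 2, against 12.27 to 12.32 in the other wild-type arrays, and Cyp3a11 at 13.00 in wild type 1, against 13.12 to 13.16. Cyp2j13 was at 3.79 in control ASO 3, against 3.62 to 3.65. Of the 12 values, 6 (50%) were on the 3 arrays that stand apart from their model as a whole, against 33.1% of such values over all genes.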

How the results depend on the processing

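The count of called P450 genes in the transgenic comparison was 0 under every alternative. In the ASO comparison the count was 1 (Cyp2d26) without the lowest 40% of genes, with arrays centred, with a trended and robust variance and without the 3 arrays that stand apart, and 2 (with Cyp3a11) under array weights. In that order these settings called 105, 146, 96, 46 and 465 genes in all, against 102 in the main fit. The first of them tested fewer genes. The adjusted p of Cyp2d26 in the ASO comparison is given with its values. Under array weights Cyp3a11 had a log2 difference of 0.20 (limma adjusted p = 0.0410). For the difference between the effects the count was 1 (Cyp2d26) with arrays centred, with the trended and robust variance, under array weights and without the 3 arrays. The counts over all genes for this difference in these settings are not given here. Leaving out 1 array gave counts of 0 to 1 in the ASO comparison and for the difference, where the gene was Cyp1a1 without transgenic 4, Cyp2d26 without transgenic 5 or control ASO 4, and Cyp2c23 without control ASO 3. In 0 other settings was a member called.

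At an unadjusted p under 0.05 the count was 2 in the transgenic comparison without the lowest 40% of genes. That filter also took out 6 of the 36 members. The count was 3 in the ASO comparison without the 3 arrays, a setting chosen after seeing the data. The shares of all genes in these settings were not computed, so neither count can be read as particular to the members. The replicate numbers did not pair the samples (correlations of same-numbered deviations from -0.48 to 0.17 in the transgenic and -0.48 to 0.47 in the ASO model, each sample closest to its own number in 1 of 9 cases). With the number as a block 0 P450 genes were called in each comparison. Over all genes this block left 2 calls in the transgenic and 18 in the ASO comparison.

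Changes of sign touched values near 0 or with a wide spread, and the cause was not tested. In transgenic liver Cyp2b10 was at -0.044 for the mean of its probe sets, Cyp2b13 at -0.028 and Cyp2d13 at -0.0057 under array weights, and Cyp2e1 at 0.0050 with arrays centred and 0.0064 after quantile normalization. Without the 3 arrays Cyp2d10 was at -0.0050 and Cyp2d13 at -0.049. After ACAT2 ASO Cyp2c39 was at -0.0055 with arrays centred and Cyp3a44 at 0.15 under array weights. Without the 3 arrays the ASO values were -0.014 for Cyp1b1, -0.020 for Cyp2c39, -0.0018 for Cyp2d10, 0.029 for Cyp2d22, -0.010 for Cyp2d34, 0.049 for Cyp3a41a and 0.31 for Cyp3a44. Leaving out each array in turn crossed 0 for 18 members in the transgenic comparison: Cyp1a2 (-0.20 to 0.0081), Cyp1b1 (-0.047 to 0.10), Cyp2b13 (-0.16 to 0.49), Cyp2b19 (-0.061 to 0.013), Cyp2c39 (-0.090 to 0.041), Cyp2d10 (-0.0050 to 0.041), Cyp2d13 (-0.049 to 0.060), Cyp2d34 (-0.00025 to 0.072), Cyp2d9 (-0.26 to 0.049), Cyp2e1 (-0.028 to 0.014), Cyp2f2 (-0.048 to 0.14), Cyp2j5 (-0.011 to 0.061), Cyp2j9 (-0.13 to 0.027), Cyp2r1 (-0.038 to 0.080), Cyp3a11 (-0.013 to 0.037), Cyp3a16 (-0.11 to 0.97), Cyp3a25 (-0.058 to 0.0065) and Cyp3a41a (-0.33 to 0.81). In the ASO comparison it did so for 10 members: Cyp1b1 (-0.032 to 0.11), Cyp2a5 (-0.13 to 0.021), Cyp2b9 (-0.35 to 0.036), Cyp2c38 (-0.26 to 0.013), Cyp2c39 (-0.086 to 0.085), Cyp2d22 (-0.086 to 0.020), Cyp2g1 (-0.029 to 0.33), Cyp2j9 (-0.32 to 0.042), Cyp2u1 (-0.0050 to 0.086) and Cyp3a44 (-0.21 to 0.23).

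The 4 to 5 arrays per group limit what can be seen: the 95% interval spanned -2.80 to 1.61 for Cyp3a41a in the ASO model, and probe sets near the bottom of the scale (6 of 36 members lay in the lowest 40% of all genes) can understate a difference, as can those near its top.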

Other observations

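The arrays that stand apart were also those with the highest signal of 2 acute phase genes, chosen after their values were seen. Saa1, a serum amyloid precursor made by hepatocytes in inflammation, was at 12.24 in ACAT2 ASO 1, against 10.18 to 11.44 in the other ACAT2 ASO arrays. It was at 12.54 in control ASO 4, against 9.72 to 10.43 in the other control arrays, and at 12.01 in wild type 2, against 8.97 to 10.67 in the other wild-type arrays. Lcn2, a lipocalin that binds bacterial iron carriers, was at 10.91 in ACAT2 ASO 1 (others 8.56 to 10.03), 11.75 in control ASO 4 (7.80 to 8.77) and 11.20 in wild type 2 (6.61 to 8.56).

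Hao2, a female-predominant oxidase of mouse liver outside the P450 genes, was also chosen after its values were seen. It was at 6.09 in ACAT2 ASO 1, against 8.54 to 8.76 in the other ACAT2 ASO arrays. It was at 5.66 in control ASO 4, against 8.72 to 9.57 in the other control arrays. Cyp2b13 had its lowest values of each ASO group in these same arrays, 7.71 in ACAT2 ASO 1 and 10.02 in control ASO 4. So did Cyp2b9, at 9.59 and 10.32. The female-predominant Cyp3a41a and Cyp3a44 went the other way in control ASO 4, the highest of their group (12.34 and 7.48). In ACAT2 ASO 1 Cyp3a44 was lowest (6.50), and Cyp3a41a was not (9.81). In wild type 2, the other array that stands apart, Hao2 (5.27) and Cyp2b13 (9.27) were inside the range of their group. Hao2 ran over 5.38 to 7.68 in transgenic and 4.84 to 5.61 in wild-type liver, with a difference of 1.20 ± 0.68 (SE, limma adjusted p = 0.555).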
